A study of Mus musculus with 6 samples.

Results

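The genes of sterol and fatty acid synthesis examined here are 37 named genes of the cholesterol pathway, of fatty acid synthesis and of the SREBP and LXR transcription factors that control them, among 44788 entries of the count table. The members were listed by symbol. Of the 37, 36 symbols equal an entry, and Msmo1 stands in the table under its older symbol Sc4mol, which RefSeq lists as a synonym. All 37 passed the filter on low counts that left 15362 genes for testing. By role they are 7 enzymes of the mevalonate arm, 11 enzymes from squalene to cholesterol, 6 genes of SREBP control and sterol transport, 8 genes of fatty acid synthesis and lipid assembly, and 5 LXR receptors and targets.

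RNA was sequenced from chondrocytes, the cells of cartilage, of the femoral epiphysis of C57BL/6 mice at postnatal day 1 (the series design says P2, a term it does not explain), in 3 groups of 2 libraries. The group called TGF-α plus gefitinib received 10 µM gefitinib, an inhibitor of the kinase of the epidermal growth factor receptor (EGFR), for 30 min, then gefitinib with 10 ng/ml TGF-α, a ligand of that receptor, for 48 h, and its libraries are also called the gefitinib libraries here. The TGF-α group received 10 ng/ml TGF-α for 48 h, and the control group vehicle alone for 48 h. Cells of all 3 groups were in DMEM/F12 with 10% FBS and 0.1% DMSO per the sample labels (the series design names PBS as the control), so serum lipids were present in every culture, and gefitinib without TGF-α was not analysed here. The comparisons concern the response of chondrocytes to EGFR activation, the subject of the series, and its change by the inhibitor. Total counts were 12317407 to 16096263 per library. No source used here says that the 2 libraries of a group came from separate cultures or animals, and the p-values therefore rest on variation among these libraries that may be technical. The 9 chondrocyte markers, among them Col2a1 and Acan, had counts in all 6 libraries and summed to 62469 to 65376 CPM (the count relative to the library size after TMM scaling, the unit of all levels here) with TGF-α plus gefitinib, 37415 to 38651 CPM with TGF-α and 72285 to 77101 CPM in control. In such samples fewer cells of a type and less RNA per cell cannot be told apart.

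Cholesterol is built from acetyl-CoA through mevalonate, the isoprenoid diphosphates, squalene and a series of sterols. SREBP-2, the product of Srebf2, switches on most of the enzymes of that route when sterol in the endoplasmic reticulum is low, while the SREBP-1 proteins of Srebf1 act more on fatty acid genes. SCAP carries both precursors to the Golgi for cleavage, and the INSIG proteins hold SCAP back when sterols are plentiful. LXRs are nuclear receptors for oxysterols that switch on cholesterol efflux and Srebf1. In cartilage, cholesterol also modifies hedgehog proteins, which control growth plate chondrocytes, and inherited defects of late sterol enzymes such as Nsdhl and Ebp cause skeletal dysplasia.

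Promoter windows of 300 bases (250 before to 50 after an annotated start, RefSeq, GRCm38.p6) were in the sequence table for 30 of the 37 members, and not for Abcg1, Fdft1, Fdps, Scd1, Scd2, Sqle and Stard4. They are shown for 4 members that rose with TGF-α and for Srebf1 and Acaca, which fell, because those genes carry the opposite directions described below. Capitals mark matches, on either strand, to CCAAT, the letters bound by NF-Y, which acts beside SREBP, and to TCACNCCAC, a sterol regulatory element-like motif. No match of one motif overlapped a match of the other in the printed windows. The windows lie at chr13:119690101-119690400, plus strand (Hmgcs1), chr8:64733529-64733828, minus strand (Msmo1), chrX:72918271-72918570, plus strand (Nsdhl), chr5:28071162-28071461, plus strand (Insig1), chr11:60210422-60210721, minus strand (Srebf1, the most downstream of its 3 annotated windows), and chr11:84195188-84195487, plus strand (Acaca, an annotated start inside the gene). Each is written 5′ to 3′ on the gene's strand.
Hmgcs1: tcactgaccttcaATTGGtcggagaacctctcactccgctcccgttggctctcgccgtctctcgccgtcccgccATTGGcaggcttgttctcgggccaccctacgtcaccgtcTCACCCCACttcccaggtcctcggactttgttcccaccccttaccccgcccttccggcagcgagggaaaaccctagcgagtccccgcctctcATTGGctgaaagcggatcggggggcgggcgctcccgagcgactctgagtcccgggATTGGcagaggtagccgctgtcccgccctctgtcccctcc
Msmo1: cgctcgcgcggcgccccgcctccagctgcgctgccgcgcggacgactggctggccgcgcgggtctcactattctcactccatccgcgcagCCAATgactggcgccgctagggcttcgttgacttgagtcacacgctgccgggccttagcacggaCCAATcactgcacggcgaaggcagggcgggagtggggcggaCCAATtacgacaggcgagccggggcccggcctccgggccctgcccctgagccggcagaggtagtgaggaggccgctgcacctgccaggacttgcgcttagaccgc
Nsdhl: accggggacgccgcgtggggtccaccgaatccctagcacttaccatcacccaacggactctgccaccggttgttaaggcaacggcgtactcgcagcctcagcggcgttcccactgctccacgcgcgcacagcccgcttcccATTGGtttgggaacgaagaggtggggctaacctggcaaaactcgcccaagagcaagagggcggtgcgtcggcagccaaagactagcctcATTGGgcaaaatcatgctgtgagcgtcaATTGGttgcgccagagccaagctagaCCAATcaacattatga
Insig1: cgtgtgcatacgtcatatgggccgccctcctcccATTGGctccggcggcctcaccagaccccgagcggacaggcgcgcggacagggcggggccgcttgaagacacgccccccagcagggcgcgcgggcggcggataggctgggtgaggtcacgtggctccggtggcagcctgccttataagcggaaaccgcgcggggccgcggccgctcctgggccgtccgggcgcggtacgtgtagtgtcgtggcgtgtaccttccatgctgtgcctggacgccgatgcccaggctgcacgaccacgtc
Srebf1: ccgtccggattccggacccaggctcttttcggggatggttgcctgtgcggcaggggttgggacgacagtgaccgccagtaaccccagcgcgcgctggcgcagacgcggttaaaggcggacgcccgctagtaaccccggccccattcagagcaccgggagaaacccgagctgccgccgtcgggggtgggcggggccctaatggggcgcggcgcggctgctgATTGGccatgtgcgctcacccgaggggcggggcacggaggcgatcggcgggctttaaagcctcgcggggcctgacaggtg
Acaca: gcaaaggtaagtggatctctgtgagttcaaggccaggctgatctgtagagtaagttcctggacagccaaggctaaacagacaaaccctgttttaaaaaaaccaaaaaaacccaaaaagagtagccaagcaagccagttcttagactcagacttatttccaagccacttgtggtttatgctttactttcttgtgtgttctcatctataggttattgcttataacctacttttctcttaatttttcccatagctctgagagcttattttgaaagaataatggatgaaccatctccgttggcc
The TCACNCCAC letters began at position -137 from the start in Hmgcs1, the only 1 of 30 members with a match, against 1.44% of all 27025 genes in the table. CCAAT was found in 22 of 30 members, against 41.1% of all genes. Hmgcs1 and Nsdhl each held 4 CCAAT matches and Msmo1 held 3, while the Acaca window held no match to either motif. Of the members with a window, CCAAT was in 15 of 18 that rose with TGF-α, 1 of 3 that fell and 6 of 9 that did not pass the test. The E-box CACGTG was in 6 of 30 members, against 8.09% of all genes, and the GC-box GGGCGG in 23, against 38.2%, both searched on both strands. These matches describe letters in these windows and are not evidence of binding.

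With TGF-α, 24 of the 37 members rose and 3 fell against control, where 15.9% of all tested genes rose and 14.0% fell (29.9% in all). The members that rose were 13 enzymes of the sterol route, Srebf2, Stard4, both Insig genes, 6 genes of fatty acid synthesis and Abca1, and those that fell were Srebf1, Scap and Acaca. The median log2 fold change was 0.52 over the members and 0.00 over all tested genes. With gefitinib added to TGF-α, 17 members were lower and 6 higher than with TGF-α alone, where 16.9% of all tested genes were lower and 17.0% higher (34.0% in all), with medians of -0.17 for the members and 0.01 for all genes. Between TGF-α plus gefitinib and control, 20 members were higher and 0 lower, against 5.27% and 4.26% of all tested genes (9.52% in all), with medians of 0.35 and 0.00. The test was edgeR's quasi-likelihood test on all 6 libraries, and a gene passed at a Benjamini-Hochberg adjusted p under 0.05 over all 15362 genes. The 3 comparisons share libraries, so they are not independent of each other.

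The count of 6 higher members between TGF-α plus gefitinib and TGF-α was 3 without TGF-α 1, 3 without TGF-α plus gefitinib 1 and 3 by DESeq2, while the count of lower members was 13 to 18 over the 13 alternative settings. The count between TGF-α plus gefitinib and control also depends on single libraries. It was 12 without control 1 or without control 2, and 13 without TGF-α plus gefitinib 1, all of them higher. At an unadjusted p under 0.05, edgeR gave 27 higher and 0 lower members in that comparison, and DESeq2, which gave an adjusted p for 33 of the members, called 16 higher and 0 lower. Over all 15362 tested genes edgeR gave 1918 higher and 1695 lower at that unadjusted p, and DESeq2 called 472 higher and 433 lower. These totals are the background for the unadjusted and DESeq2 counts of that comparison below. Across all 13 alternative settings, 22 of the 27 calls between TGF-α and control were kept, 14 of the 23 between TGF-α plus gefitinib and TGF-α, and 10 of the 20 between TGF-α plus gefitinib and control. The 10 were Acat2, Fdps, Lss, Msmo1, Insig1, Srebf1, Fasn, Scd1, Scd2 and Abca1. By DESeq2 the calls of Acss2 and Abca1 were lost between TGF-α and control. Those of Pmvk, Idi1, Hsd17b7, Scap, Stard4, Fasn and Elovl6 were lost between TGF-α plus gefitinib and TGF-α. Between TGF-α plus gefitinib and control, those of Pmvk, Mvd, Fdft1 and Dhcr7 were lost. In 30 members both TGF-α libraries lay above both control libraries and in 4 both lay below, where 32.8% and 31.3% of all tested genes did so. Both TGF-α plus gefitinib libraries lay above both TGF-α libraries in 12 members and below in 20, against 33.5% and 32.3% of all tested genes. Against control they lay above in 31 members and below in 2, where 26.5% and 25.6% of all tested genes did so.

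**Figure D1:**
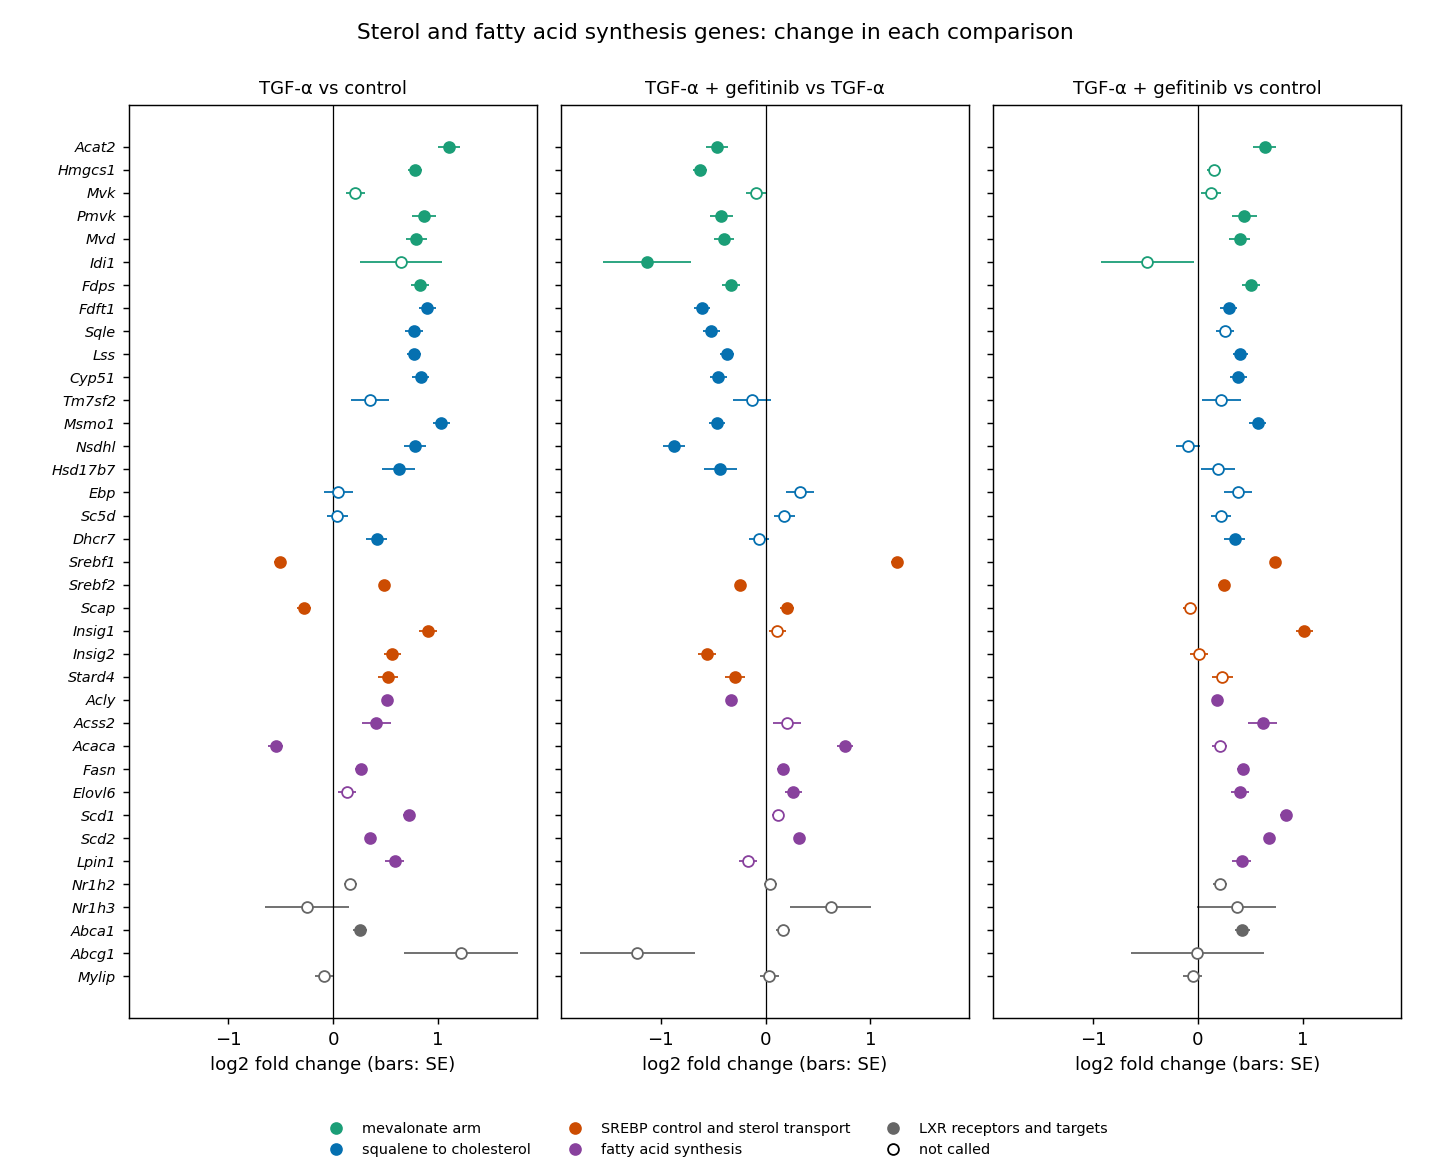
Log2 fold change (x axis, bars are SE) of each of the 37 members (y axis, in pathway order) in the 3 comparisons, coloured by role. Filled points passed the test and open points did not. Sterol enzymes lie to the right with TGF-α and mostly to the left when gefitinib was added, whereas Srebf1 and Acaca take the opposite sides, and 20 members lie significantly to the right between TGF-α plus gefitinib and control.

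The mevalonate arm turns acetyl-CoA into farnesyl diphosphate. With TGF-α, 5 of its 7 genes rose and 0 fell, and with gefitinib added 6 were lower and 0 higher than with TGF-α. Against control, 4 were higher with TGF-α plus gefitinib and 0 lower. The shares of all tested genes were 15.9% higher and 14.0% lower, 17.0% and 16.9%, and 5.27% and 4.26% in these 3 comparisons. At an unadjusted p under 0.05 edgeR gave no member of the arm in the opposite direction in any of the 3 comparisons, nor did DESeq2 call one. Over the 7 genes the median log2 fold changes were 0.79, -0.42 and 0.40 in the order of these comparisons. Hmgcs1, the synthase that makes HMG-CoA (chromosome 13, 119690379 to 119708260 in GRCm38), had 67.3 and 61.5 CPM with TGF-α plus gefitinib, 96.9 and 102 with TGF-α, and 58.7 and 57.1 in control. Both TGF-α libraries stood above the other 4, and the gefitinib libraries lay just above those of control. It rose 1.71-fold with TGF-α (log2 fold change 0.78 ± 0.07 SE, edgeR adjusted p = 3.88e-07) and was 1.54-fold lower with gefitinib added (-0.62 ± 0.07, adjusted p = 3.49e-06). The difference that remained between TGF-α plus gefitinib and control did not pass the test (0.16 ± 0.07, adjusted p = 0.181). A gene model on the opposite strand covers 12.12% of the exon bases of Hmgcs1.

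Acat2, the acetoacetyl-CoA thiolase that starts the route, changed most of the enzymes with TGF-α. It had 23.7 and 27.3 CPM with TGF-α plus gefitinib, 33.7 and 36.6 with TGF-α, and 15.9 and 16.7 in control. The 3 groups were fully separated, with TGF-α highest and control lowest. Acat2 rose 2.15-fold with TGF-α (log2 fold change 1.10 ± 0.11 SE, edgeR adjusted p = 1.53e-06), was 1.38-fold lower with gefitinib than with TGF-α alone (-0.46 ± 0.10, adjusted p = 0.00264), and stayed 1.56-fold above control (0.64 ± 0.11, adjusted p = 0.00184). Its near copy Acat3 had 25 to 84 counts per library, 84 of them in TGF-α plus gefitinib 2, and how reads of such copies were divided is not given. Fdps, farnesyl diphosphate synthase, had 40.6 and 37.1 CPM with TGF-α plus gefitinib, 48.7 and 48.9 with TGF-α, and 26.1 and 28.6 in control, with the same order of groups and no overlap. Fdps rose 1.78-fold with TGF-α (log2 fold change 0.83 ± 0.09 SE, edgeR adjusted p = 3.28e-06) and was 1.26-fold lower with gefitinib added (-0.33 ± 0.08, adjusted p = 0.00726), a call lost without TGF-α plus gefitinib 2 (edgeR adjusted p = 0.0702). A gene model on the same strand that was not analysed here, Gm43738, covers 26.71% of its exon bases.

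Pmvk and Mvd, the kinase and the decarboxylase that follow mevalonate kinase, showed the same intermediate place of the gefitinib group. Pmvk had 19.4 and 19.5 CPM with TGF-α plus gefitinib, 24.0 and 28.1 with TGF-α, and 14.3 and 14.3 in control, a 1.82-fold rise with TGF-α (log2 fold change 0.87 ± 0.11 SE, edgeR adjusted p = 3.26e-05). Mvd had 28.4 and 27.3 CPM with TGF-α plus gefitinib, 38.6 and 34.7 with TGF-α, and 22.3 and 20.1 in control, a 1.73-fold rise (0.79 ± 0.10, adjusted p = 2.14e-05). In both genes the libraries of the 3 groups did not overlap. With gefitinib added, Pmvk was 1.34-fold lower than with TGF-α (-0.42 ± 0.11, adjusted p = 0.00802), which was lost without TGF-α 2 (edgeR adjusted p = 0.111). Mvd was 1.31-fold lower (-0.39 ± 0.10, adjusted p = 0.00573), which was lost without TGF-α 1 (edgeR adjusted p = 0.0728). Against control, Pmvk was higher with TGF-α plus gefitinib (log2 fold change 0.44 ± 0.12 SE, edgeR adjusted p = 0.0274), but not without any 1 of TGF-α plus gefitinib 1, TGF-α plus gefitinib 2, control 1 and control 2 (edgeR adjusted p = 0.077 to 0.141). Mvd was also higher (0.40 ± 0.10, adjusted p = 0.0232), but not without any 1 of TGF-α plus gefitinib 1, TGF-α plus gefitinib 2, control 1 and control 2 (edgeR adjusted p = 0.0531 to 0.199). Mvk, mevalonate kinase, had 30.9 and 27.9 CPM with TGF-α plus gefitinib, 30.9 and 31.8 with TGF-α, and 26.3 and 27.8 in control and passed no test (log2 0.21 ± 0.09 SE between TGF-α and control, edgeR adjusted p = 0.108). Idi1, the isopentenyl diphosphate isomerase, had few counts, with 9 and 14 counts with TGF-α plus gefitinib, 27 and 25 with TGF-α, and 17 and 17 in control. Its gefitinib libraries were below its TGF-α libraries at the edge of the threshold (log2 fold change -1.13 ± 0.42 SE, edgeR adjusted p = 0.0499), and the call was lost without any 1 of TGF-α plus gefitinib 1, TGF-α 1, TGF-α 2, control 1 and control 2 (edgeR adjusted p = 0.0723 to 0.311).

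From squalene to cholesterol, 8 of 11 enzymes rose with TGF-α and 0 fell, and 7 were lower and 0 higher with gefitinib added than with TGF-α alone. Against control 5 were higher with TGF-α plus gefitinib and 0 lower. Beside these counts, 15.9% of all tested genes were higher and 14.0% lower, then 17.0% and 16.9%, and 5.27% and 4.26%. At an unadjusted p under 0.05, edgeR gave 1 enzyme higher with TGF-α plus gefitinib than with TGF-α and none in the opposite direction in the other 2 comparisons, and DESeq2 called none in those directions. Their medians on the log2 scale were 0.77, -0.43 and 0.29. Msmo1, the C4-methylsterol oxidase (chromosome 8, 64718139 to 64733792 in GRCm38), had 44.7 and 40.0 CPM with TGF-α plus gefitinib, 57.8 and 59.0 with TGF-α, and 28.1 and 29.0 in control. The groups did not overlap and followed the order TGF-α, TGF-α plus gefitinib, control. Msmo1 rose 2.04-fold with TGF-α (log2 fold change 1.03 ± 0.08 SE, edgeR adjusted p = 1.81e-07), was 1.38-fold lower with gefitinib added (-0.46 ± 0.08, adjusted p = 0.000359), and was 1.48-fold higher than control with both (0.57 ± 0.08, adjusted p = 0.000508). Nsdhl, the dehydrogenase that works with Msmo1 to remove the C4 methyl groups (chromosome X, 72918557 to 72958514 in GRCm38), had 15.1 and 15.0 CPM with TGF-α plus gefitinib, 27.2 and 28.0 with TGF-α, and 15.5 and 16.6 in control. Here the gefitinib libraries lay below both control libraries. Nsdhl rose 1.72-fold with TGF-α (log2 fold change 0.78 ± 0.10 SE, edgeR adjusted p = 4e-05) and was 1.83-fold lower with gefitinib added (-0.87 ± 0.11, adjusted p = 1.36e-05). Against control it did not pass the test with TGF-α plus gefitinib (-0.09 ± 0.11, adjusted p = 0.677).

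Fdft1, squalene synthase, commits farnesyl diphosphate to sterols and had 36.6 and 36.4 CPM with TGF-α plus gefitinib, 54.0 and 57.0 with TGF-α, and 30.2 and 29.4 in control. It rose 1.86-fold with TGF-α (log2 fold change 0.90 ± 0.08 SE, edgeR adjusted p = 5.34e-07) and was 1.52-fold lower with gefitinib added (-0.61 ± 0.08, adjusted p = 2.35e-05). TGF-α plus gefitinib lay above control without overlap (0.29 ± 0.08, adjusted p = 0.0357), but that call was lost without any 1 of the 6 libraries (edgeR adjusted p = 0.051 to 0.184). Ctsb, a cathepsin gene on the opposite strand, covers 18.31% of the exon bases of Fdft1, and whether counting used strand is not given. Ctsb averaged 813 CPM with TGF-α plus gefitinib, 879.6 with TGF-α and 583 in control, and it also rose with TGF-α (log2 fold change 0.59 ± 0.05 SE, edgeR adjusted p = 1.37e-07). Its part in the Fdft1 counts was not tested.

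Sqle, squalene epoxidase, had 46.6 and 45.5 CPM with TGF-α plus gefitinib, 66.0 and 65.7 with TGF-α, and 42.1 and 35.3 in control, 1.71-fold higher with TGF-α than in control (log2 fold change 0.77 ± 0.08 SE, edgeR adjusted p = 4.58e-06). Gefitinib with TGF-α gave 1.43-fold less Sqle than TGF-α (-0.52 ± 0.08, adjusted p = 0.000181), and against control the difference did not pass (0.26 ± 0.09, adjusted p = 0.0762). Lss, lanosterol synthase, closes the sterol rings. It had 51.5 and 52.9 CPM with TGF-α plus gefitinib, 66.5 and 68.2 with TGF-α, and 40.5 and 38.5 in control, and rose with TGF-α (log2 fold change 0.77 ± 0.07 SE, edgeR adjusted p = 7.36e-07). Cyp51, the lanosterol demethylase, had 56.0 and 55.6 CPM with TGF-α plus gefitinib, 76.7 and 76.0 with TGF-α, and 38.9 and 46.4 in control, and rose with TGF-α (log2 fold change 0.83 ± 0.08 SE, edgeR adjusted p = 1.38e-06). Both enzymes were lower with gefitinib added than with TGF-α alone, Lss by 0.37 ± 0.07 on the log2 scale and Cyp51 by 0.45 ± 0.08 (edgeR adjusted p = 0.000691 and 0.000412). Both also stayed above control (Lss 0.40 ± 0.07, adjusted p = 0.00225; Cyp51 0.38 ± 0.08, adjusted p = 0.00798 by edgeR), Cyp51 not without control 1 (edgeR adjusted p = 0.107).

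Of the other 5 enzymes, 2 passed a test. Hsd17b7, the 3-ketosteroid reductase, had 11.4 and 10.4 CPM with TGF-α plus gefitinib, 12.8 and 16.7 with TGF-α, and 8.74 and 10.3 in control. It rose with TGF-α (log2 fold change 0.62 ± 0.16 SE, edgeR adjusted p = 0.00764), but not without either TGF-α 2 or control 1 (edgeR adjusted p = 0.0799 to 0.129). The lower level with gefitinib added (-0.43 ± 0.16, adjusted p = 0.0471 by edgeR) was likewise lost without any 1 of TGF-α plus gefitinib 1, TGF-α plus gefitinib 2, TGF-α 2, control 1 and control 2 (edgeR adjusted p = 0.0554 to 0.399). Dhcr7, which reduces 7-dehydrocholesterol in the last step of one branch, had 28.2 and 30.5 CPM with TGF-α plus gefitinib, 29.4 and 31.9 with TGF-α, and 22.2 and 23.8 in control. It rose with TGF-α (log2 fold change 0.42 ± 0.10 SE, edgeR adjusted p = 0.00471), a call lost without TGF-α 2 (edgeR adjusted p = 0.0574), and its gefitinib libraries overlapped those of TGF-α (log2 -0.06 ± 0.10). Against control Dhcr7 was higher with TGF-α plus gefitinib (log2 fold change 0.35 ± 0.10 SE, edgeR adjusted p = 0.0378), but not without any 1 of TGF-α plus gefitinib 1, TGF-α plus gefitinib 2, TGF-α 2, control 1 and control 2 (edgeR adjusted p = 0.0524 to 0.211). Tm7sf2, a sterol C14 reductase, Ebp, the sterol isomerase, and Sc5d, the C5 desaturase, passed the test in none of the 3 comparisons. Tm7sf2 had 5.60 to 8.22 CPM over all 6 libraries, and Vps51, on the same strand, covers 12.08% of its exon bases. Ebp had 18.3 and 19.1 CPM with TGF-α plus gefitinib, 13.3 and 16.4 with TGF-α and 13.0 and 15.7 in control, highest with gefitinib, unlike most enzymes (log2 0.38 ± 0.13 between TGF-α plus gefitinib and control, edgeR adjusted p = 0.0969). Sc5d had 32.3 and 35.1 CPM with TGF-α plus gefitinib, 28.9 and 30.6 with TGF-α, and 31.0 and 27.1 in control, also highest with gefitinib.

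**Figure D2:**
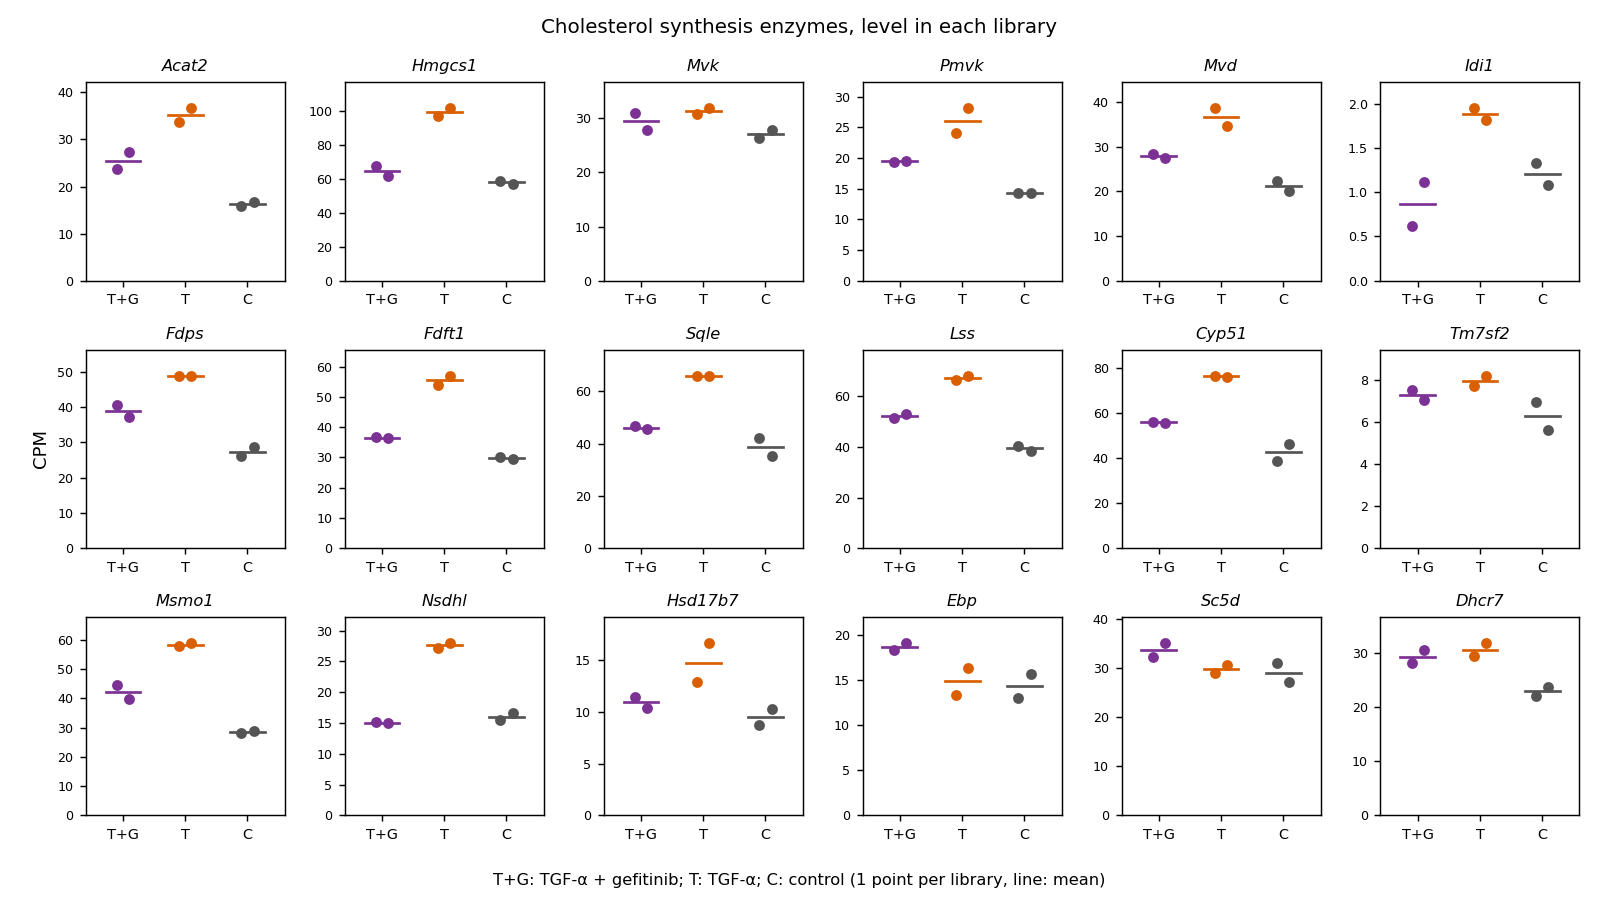
CPM (y axis, from 0) of the 18 sterol enzymes in each library, with points for the libraries of TGF-α plus gefitinib, TGF-α and control, and a line at each group's mean. In 14 of the 18 panels the TGF-α points stand above all others. Among these are Idi1 and Tm7sf2, which did not pass between TGF-α and control. The share of all tested genes with this pattern was not computed. In Nsdhl the gefitinib points lie below control, and in Ebp and Sc5d they are highest. These 3 genes did not pass between TGF-α plus gefitinib and control.

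Over both arms together, 13 of 18 enzymes rose with TGF-α and 0 fell, 13 were lower and 0 higher with gefitinib added, and 9 were higher and 0 lower between TGF-α plus gefitinib and control. In those directions went 15.9%, 16.9% and 5.27% of all tested genes, and 14.0%, 17.0% and 4.26% in the others. DESeq2 gave 13, 10 and 5 enzymes in those directions and 0 in the others, against 1671, 1827 and 472, and 1442, 1647 and 433, of all tested genes. At an unadjusted p under 0.05 edgeR gave 14, 13 and 13 enzymes in those directions, and 0, 1 and 0 in the others. Over all 15362 tested genes it gave 3135, 3258 and 1918, and 2856, 3353 and 1695. The summed CPM of the 18 enzymes was 559 and 549 with TGF-α plus gefitinib, 715 and 741 with TGF-α, and 442 and 443 in control. The 12 proliferation genes, among them Mki67 and Top2a, were listed with earlier results of these data known. All 12 also rose with TGF-α, against 15.9% of all tested genes. All 12 were lower with gefitinib added, against 16.9% of all tested genes. Their summed CPM was 371 to 381 with TGF-α plus gefitinib, 842 to 902 with TGF-α and 388 to 406 in control. No proliferation gene passed between TGF-α plus gefitinib and control by edgeR or DESeq2, where 2 were lower and 0 higher at an unadjusted p under 0.05. With TGF-α plus gefitinib the sterol sum lay above control, although 9 of the 18 enzymes did not pass there. The proliferation sum lay below control. The part of proliferation in the sterol changes was not tested.

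Of the 6 genes of SREBP control and sterol transport, 4 rose and 2 fell with TGF-α, 2 were higher and 3 lower with gefitinib added, and 3 were higher and 0 lower between TGF-α plus gefitinib and control. Among all tested genes 15.9% were higher and 14.0% lower, 17.0% and 16.9%, and 5.27% and 4.26% in the same order. In the last comparison edgeR gave 4 higher and 0 lower at an unadjusted p under 0.05, and DESeq2 called 3 higher and 0 lower. The median log2 fold changes were 0.50, -0.06 and 0.24 in the 3 comparisons. Srebf1 and Srebf2 moved in opposite directions with TGF-α and when gefitinib was added. Srebf1 (chromosome 11, 60199089 to 60222581 in GRCm38) had 532 and 500.0 CPM with TGF-α plus gefitinib, 206 and 228 with TGF-α, and 310.1 and 309 in control. The gefitinib libraries were highest and the TGF-α libraries lowest, with control between them and no overlap. Srebf1 was 1.43-fold lower with TGF-α than in control (log2 fold change -0.51 ± 0.06 SE, edgeR adjusted p = 4.99e-06), 2.38-fold higher with TGF-α plus gefitinib than with TGF-α (1.25 ± 0.06, adjusted p = 2.83e-10), and 1.67-fold higher than control with both (0.74 ± 0.05, adjusted p = 1.11e-06). The table has 1 row for Srebf1, so its SREBP-1a and SREBP-1c transcripts, which begin at different starts, were not separated. Srebf2 had 166 and 161 CPM with TGF-α plus gefitinib, 195 and 191 with TGF-α, and 137 and 139 in control, again without overlap but with TGF-α highest. It rose 1.40-fold with TGF-α (log2 fold change 0.49 ± 0.05 SE, edgeR adjusted p = 3.39e-06) and was 1.18-fold lower with gefitinib added (-0.24 ± 0.05, adjusted p = 0.00182). It was 1.19-fold above control with both (0.25 ± 0.05, adjusted p = 0.00686), but not without either control 1 or control 2 (edgeR adjusted p = 0.0574 to 0.0691).

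The 2 Insig genes rose together with TGF-α and parted with gefitinib. Insig1, itself a target of SREBP (chromosome 5, 28071363 to 28078662 in GRCm38), had 49.5 and 46.2 CPM with TGF-α plus gefitinib, 43.1 and 45.4 with TGF-α, and 23.1 and 24.2 in control. All 4 libraries that received TGF-α lay well above control. Insig1 rose 1.87-fold with TGF-α (log2 fold change 0.90 ± 0.09 SE, edgeR adjusted p = 1.26e-06) and was 2.02-fold above control with TGF-α plus gefitinib (1.02 ± 0.09, adjusted p = 4.02e-06). The difference between these 2 treatments did not pass (0.11 ± 0.08, adjusted p = 0.314). Insig2, whose protein also retains SCAP, had 34.8 and 39.6 CPM with TGF-α plus gefitinib, 54.3 and 54.8 with TGF-α, and 35.2 and 38.5 in control. Its gefitinib libraries overlapped those of control. It rose 1.48-fold with TGF-α (log2 fold change 0.56 ± 0.08 SE, edgeR adjusted p = 0.000117) and was 1.47-fold lower with gefitinib added (-0.56 ± 0.08, adjusted p = 0.000128), and between TGF-α plus gefitinib and control its log2 fold change was 0.01 ± 0.09 SE (edgeR adjusted p = 0.969).

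Scap, the SREBP escort, had 80.2 and 72.7 CPM with TGF-α plus gefitinib, 66.9 and 66.1 with TGF-α, and 83.2 and 78.0 in control. It fell 1.21-fold with TGF-α (log2 fold change -0.28 ± 0.07 SE, edgeR adjusted p = 0.00617), but not without either TGF-α 2 or control 1 (edgeR adjusted p = 0.051 to 0.0729). With gefitinib added it was higher than with TGF-α (0.20 ± 0.07, adjusted p = 0.0333 by edgeR), but not without any 1 of TGF-α plus gefitinib 1, TGF-α 1 and TGF-α 2 (edgeR adjusted p = 0.114 to 0.319). A gene model on the opposite strand that was not analysed here covers 13.23% of its exon bases. Stard4, a carrier that moves cholesterol between membranes, had 29.1 and 30.7 CPM with TGF-α plus gefitinib, 35.0 and 37.9 with TGF-α, and 27.2 and 23.8 in control. It rose 1.44-fold with TGF-α (log2 fold change 0.52 ± 0.10 SE, edgeR adjusted p = 0.000821). The lower level with gefitinib (-0.29 ± 0.10, adjusted p = 0.0319 by edgeR) was lost without any 1 of TGF-α plus gefitinib 1, TGF-α plus gefitinib 2, TGF-α 1 and TGF-α 2 (edgeR adjusted p = 0.0538 to 0.197).

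The relation between paired genes was also read within each library, where the scaling between libraries plays no part. These pairs were chosen after the values were seen, and no test is given. Srebf1 had 3.21 and 3.11 counts per count of Srebf2 with TGF-α plus gefitinib, 1.05 and 1.20 with TGF-α, and 2.27 and 2.22 in control. Insig1 had 1.42 and 1.17 counts per count of Insig2 with TGF-α plus gefitinib, 0.794 and 0.829 with TGF-α, and 0.656 and 0.629 in control. Acaca had 0.306 and 0.302 counts per count of Acly with TGF-α plus gefitinib, 0.149 and 0.137 with TGF-α, and 0.315 and 0.284 in control. The first 2 ratios were highest with gefitinib, and the Acaca to Acly ratios overlapped between the gefitinib and control groups. Such ratios of raw counts carry the lengths of both genes and compare libraries, not the levels of the 2 genes.

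**Figure D3:**
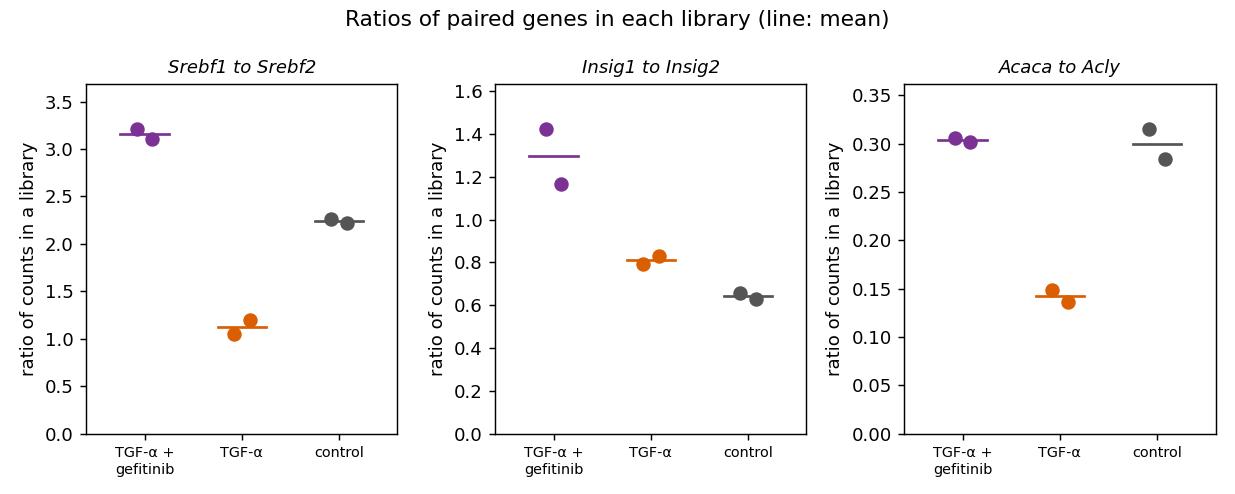
Ratio of counts (y axis, from 0) of pairs of members in each library, with points for TGF-α plus gefitinib, TGF-α and control and a line at each mean. Srebf1 relative to Srebf2 is lowest in the 2 TGF-α libraries and highest in the 2 gefitinib libraries.

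In fatty acid synthesis, 6 of 8 genes rose with TGF-α and 1 fell, 4 were higher and 1 lower with gefitinib added, and 7 were higher and 0 lower between TGF-α plus gefitinib and control. For all tested genes the shares were 15.9% higher and 14.0% lower, 17.0% and 16.9%, and 5.27% and 4.26%. In the last comparison edgeR gave 8 higher and 0 lower at an unadjusted p under 0.05, and DESeq2 called 7 higher and 0 lower. Their summed CPM was 2005 and 1896 with TGF-α plus gefitinib, 1763 and 1705 with TGF-α, and 1364 and 1345 in control, so that here the gefitinib group was highest. The median log2 fold changes of the 8 genes were 0.38, 0.18 and 0.42. Acaca, acetyl-CoA carboxylase 1, makes malonyl-CoA (chromosome 11, 84129672 to 84401651 in GRCm38) and was the 1 gene that fell. It had 85.4 and 83.2 CPM with TGF-α plus gefitinib, 52.4 and 47.3 with TGF-α, and 76.7 and 69.5 in control. The TGF-α libraries were clearly lowest. Acaca was 1.46-fold lower with TGF-α than in control (log2 fold change -0.55 ± 0.07 SE, edgeR adjusted p = 4.2e-05) and 1.69-fold higher with gefitinib added than with TGF-α (0.76 ± 0.07, adjusted p = 1.44e-06), and did not pass between TGF-α plus gefitinib and control (0.21 ± 0.07, adjusted p = 0.0847).

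Acly, which makes cytosolic acetyl-CoA from citrate, went with the sterol enzymes. It had 279 and 276 CPM with TGF-α plus gefitinib, 352 and 347 with TGF-α, and 244 and 245 in control. Acly rose 1.43-fold with TGF-α (log2 fold change 0.52 ± 0.05 SE, edgeR adjusted p = 5.44e-07) and was 1.26-fold lower with gefitinib added (-0.33 ± 0.05, adjusted p = 4.29e-05). TGF-α plus gefitinib was above control (0.18 ± 0.05, adjusted p = 0.0195), but not without any 1 of TGF-α plus gefitinib 1, control 1 and control 2 (edgeR adjusted p = 0.0797 to 0.121). Acss2 makes acetyl-CoA from acetate and had 23.0 and 19.7 CPM with TGF-α plus gefitinib, 16.1 and 21.0 with TGF-α, and 14.0 and 13.9 in control. Its rise with TGF-α (log2 fold change 0.41 ± 0.14 SE, edgeR adjusted p = 0.0369) was lost without any 1 of TGF-α 2, control 1 and control 2 (edgeR adjusted p = 0.132 to 0.403), and its rise with TGF-α plus gefitinib (0.62 ± 0.14, adjusted p = 0.0106) was lost without any 1 of TGF-α plus gefitinib 1, control 1 and control 2 (edgeR adjusted p = 0.0761 to 0.0945). Fasn, fatty acid synthase, had 373 and 328 CPM with TGF-α plus gefitinib, 320.2 and 307 with TGF-α, and 262 and 258 in control. It rose 1.21-fold with TGF-α (log2 fold change 0.27 ± 0.06 SE, edgeR adjusted p = 0.0024) and 1.35-fold with TGF-α plus gefitinib (0.43 ± 0.06, adjusted p = 0.000242) against control. The difference between the 2 treatments (0.16 ± 0.06, adjusted p = 0.0419) was lost without any 1 of TGF-α plus gefitinib 1, TGF-α 1, TGF-α 2, control 1 and control 2 (edgeR adjusted p = 0.062 to 0.537).

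The desaturases Scd1 and Scd2, which make monounsaturated fatty acids, were higher in all 4 libraries that received TGF-α than in control. Scd2 had 1019 and 972 CPM with TGF-α plus gefitinib, 813 and 778 with TGF-α, and 626 and 618 in control. Scd1 had 140.4 and 135 CPM with TGF-α plus gefitinib, 128 and 127 with TGF-α, and 76.1 and 78.3 in control. Scd2 rose 1.28-fold with TGF-α (log2 fold change 0.36 ± 0.04 SE, edgeR adjusted p = 2.08e-05) and was a further 1.25-fold higher with gefitinib added (0.32 ± 0.04, adjusted p = 4.53e-05), which left it 1.60-fold above control (0.68 ± 0.04, adjusted p = 4.1e-07). Scd1 rose 1.65-fold with TGF-α (log2 fold change 0.72 ± 0.06 SE, edgeR adjusted p = 1.52e-07) and was 1.78-fold above control with TGF-α plus gefitinib (0.83 ± 0.06, adjusted p = 4.37e-07), with a difference between the 2 treatments that did not pass (0.11 ± 0.05, adjusted p = 0.121). How reads of these related genes were divided is not given.

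Elovl6, which lengthens palmitate, had 52.3 and 48.9 CPM with TGF-α plus gefitinib, 41.9 and 42.4 with TGF-α, and 40.8 and 36.2 in control. It did not pass between TGF-α and control (log2 fold change 0.13 ± 0.08 SE, edgeR adjusted p = 0.264). It was higher with gefitinib added than with TGF-α (0.27 ± 0.08, adjusted p = 0.0212), but not without any 1 of TGF-α plus gefitinib 1, TGF-α 1 and TGF-α 2 (edgeR adjusted p = 0.0777 to 0.173). It was also 1.32-fold above control (0.40 ± 0.08, adjusted p = 0.0066), but not without either TGF-α plus gefitinib 1 or control 2 (edgeR adjusted p = 0.0571 to 0.108). Lpin1, a phosphatidate phosphatase of triglyceride synthesis, had 33.5 and 33.7 CPM with TGF-α plus gefitinib, 39.4 and 36.1 with TGF-α, and 24.4 and 25.9 in control. It rose 1.50-fold with TGF-α (log2 fold change 0.58 ± 0.09 SE, edgeR adjusted p = 0.000163), and its gefitinib libraries lay between those of the other groups. Lpin1 was higher than control with TGF-α plus gefitinib (0.42 ± 0.09, adjusted p = 0.00967), but not without control 1 (edgeR adjusted p = 0.0862).

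**Figure D4:**
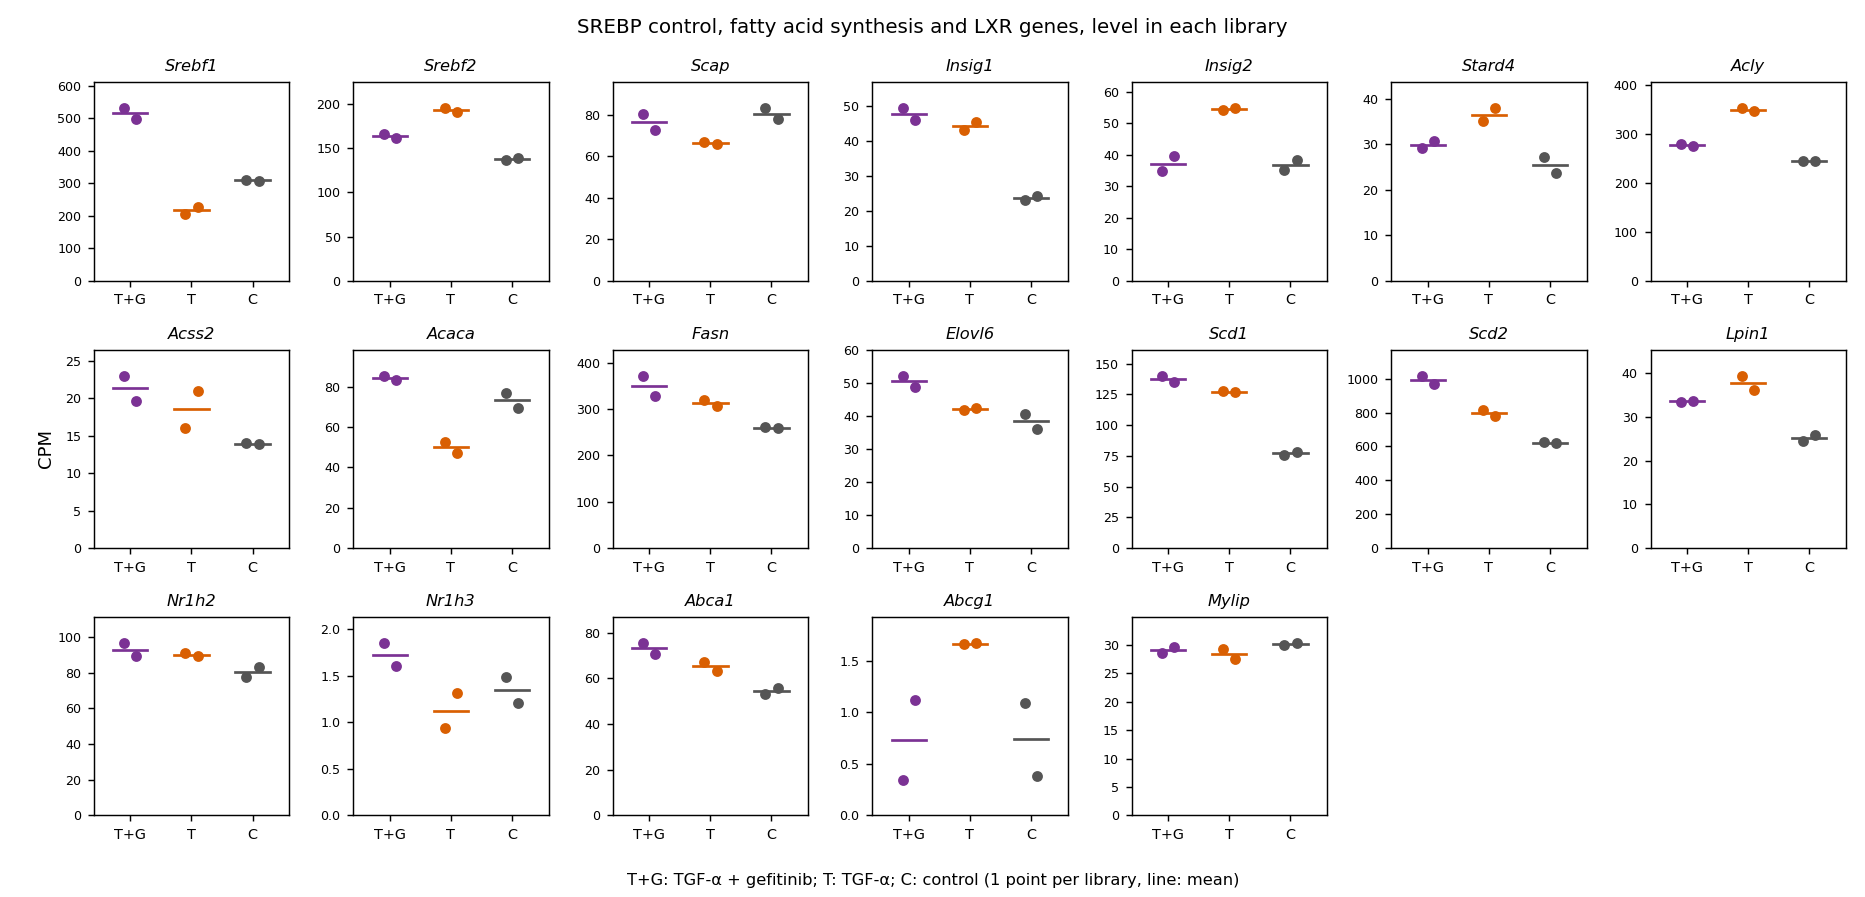
CPM (y axis, from 0) of the members outside the sterol enzymes in each library of TGF-α plus gefitinib, TGF-α and control, with a line at each mean. Srebf1 and Acaca dip in the TGF-α libraries, Insig1, Scd1 and Scd2 stay above control in all 4 libraries that received TGF-α, and Insig2 is high with TGF-α alone.

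Of the LXR receptors and targets, 1 of 5 was higher and 0 lower with TGF-α than in control, none passed between TGF-α plus gefitinib and TGF-α, and 1 was higher and 0 lower between TGF-α plus gefitinib and control. Shares of all tested genes were 15.9% higher and 14.0% lower, 17.0% and 16.9%, and 5.27% and 4.26%. Counts of 0 or 1 among 5 genes do not set this group apart. At an unadjusted p under 0.05 edgeR gave 3 higher and 0 lower, 1 higher and 1 lower, and 2 higher and 0 lower in the 3 comparisons, and DESeq2 called 0, 0 and 1 gene. The unadjusted counts over all 15362 tested genes were 3135 higher and 2856 lower, 3353 and 3258, and 1918 and 1695. Medians over the 5 genes were 0.16, 0.05 and 0.21 on the log2 scale. The gene of this group that passed was Abca1, the cholesterol efflux pump. It had 75.5 and 70.8 CPM with TGF-α plus gefitinib, 67.4 and 63.0 with TGF-α, and 53.2 and 55.8 in control. Its rise with TGF-α (log2 fold change 0.26 ± 0.07 SE, edgeR adjusted p = 0.0111) was lost without either TGF-α 1 or control 1 (edgeR adjusted p = 0.0965 to 0.113) and by DESeq2. Against control Abca1 was 1.34-fold higher with TGF-α plus gefitinib (0.42 ± 0.07, adjusted p = 0.00119). Abcg1, the efflux pump to HDL, had only 5 and 14 counts with TGF-α plus gefitinib, 23 and 23 with TGF-α, and 14 and 6 in control, and passed no test (log2 fold change 1.22 ± 0.55 SE, edgeR adjusted p = 0.112 between TGF-α and control). Mylip, which marks lipoprotein receptors for degradation, had 28.6 and 29.7 CPM with TGF-α plus gefitinib, 29.3 and 27.6 with TGF-α, and 30.0 and 30.4 in control. Nr1h2, the receptor LXRβ, had 96.6 and 89.2 CPM with TGF-α plus gefitinib, 91.0 and 89.2 with TGF-α, and 77.4 and 83.2 in control, and Nr1h3, the receptor LXRα, had 27 and 20 counts with TGF-α plus gefitinib, 13 and 18 with TGF-α, and 19 and 19 in control.

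On the scale of CPM per kilobase of exon, which allows levels of genes to be compared, Scd2 was highest of the members in all 3 groups, at 182 ± 6.07 with TGF-α plus gefitinib, 146 ± 4.62 with TGF-α and 114 ± 1.11 in control (mean ± SD, n = 2 each). Srebf1 had 91.6 ± 3.98, 38.5 ± 2.82 and 54.9 ± 0.196 CPM per kb in the same order of groups. It came next after Scd2 in the gefitinib and control groups, and after Acly in the TGF-α group. Acly had 52.6 ± 0.530, 66.2 ± 0.731 and 46.3 ± 0.166 CPM per kb. Fasn followed with 32.0 ± 2.86, 28.6 ± 0.872 and 23.8 ± 0.222 CPM per kb, and in control it and its neighbour Nr1h2 differed by less than their spread. With TGF-α, Nr1h2 and Srebf2 were likewise not apart, at 26.9 ± 0.378 and 26.9 ± 0.414 CPM per kb. Between the 2 LXR receptors the levels were far apart, with Nr1h3 at 0.686 ± 0.071, 0.447 ± 0.104 and 0.535 ± 0.077 CPM per kb against 27.7 ± 1.56, 26.9 ± 0.378 and 23.9 ± 1.22 for Nr1h2. Abcg1 was lowest, at 0.101 ± 0.069 CPM per kb in control. Exon lengths are unions over all annotated transcripts (GENCODE M21), so a gene whose long forms are not used is placed too low.

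**Figure D5:**
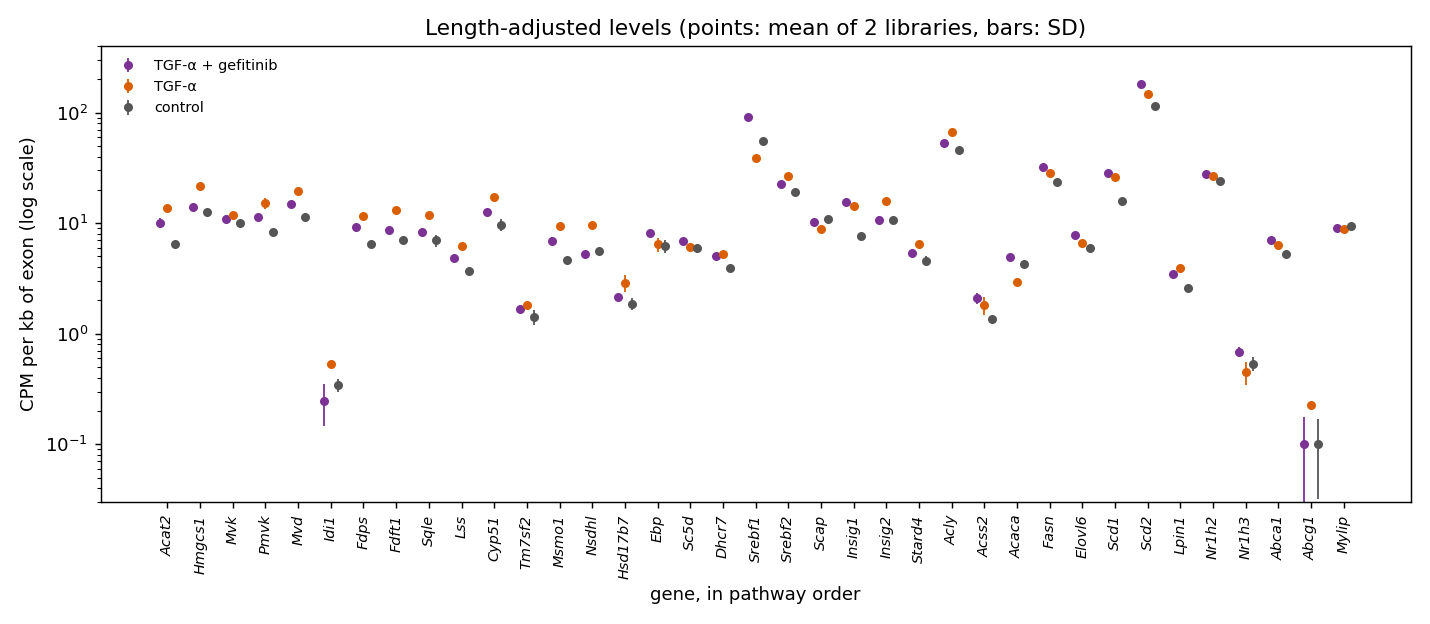
Level of each member in CPM per kb of exon (y axis, log scale; bars are SD of 2 libraries) in pathway order on the x axis, with the points of a gene running from TGF-α plus gefitinib through TGF-α to control. Scd2 and Srebf1 stand highest in control, Abcg1, Idi1 and Nr1h3 lowest.

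Beyond the 37 members, 6 further lists covered neighbouring lipid pathways. Their counts stand beside the shares of all tested genes. Of these, 15.9% rose and 14.0% fell with TGF-α, and 17.0% were higher and 16.9% lower with gefitinib added. Between TGF-α plus gefitinib and control, 5.27% were higher and 4.26% lower. Counts near these shares do not set a list apart from other genes. Of 13 genes of sterol uptake, transport and esterification, 6 rose and 3 fell with TGF-α, 2 were higher and 3 lower with gefitinib added, and 4 were higher and 0 lower between TGF-α plus gefitinib and control. Npc2, which exports cholesterol from lysosomes, had 414 and 447 CPM with TGF-α plus gefitinib, 456 and 473 with TGF-α, and 255 and 256 in control, and rose 1.82-fold with TGF-α (log2 fold change 0.86 ± 0.05 SE, edgeR adjusted p = 5.26e-09). Lrp8, a lipoprotein receptor, had 11.9 and 14.7 CPM with TGF-α plus gefitinib, 34.2 and 32.9 with TGF-α, and 10.2 and 14.9 in control, 2.64-fold higher with TGF-α than in control (1.40 ± 0.15, adjusted p = 3.89e-06) and 2.53-fold lower with gefitinib added (-1.34 ± 0.15, adjusted p = 5.77e-06). Soat1, which esterifies cholesterol, went the other way, with 81.3 and 72.8 CPM with TGF-α plus gefitinib, 46.3 and 53.8 with TGF-α, and 63.5 and 64.6 in control, higher with gefitinib added than with TGF-α (log2 fold change 0.62 ± 0.08 SE, edgeR adjusted p = 2.75e-05). Of 10 other isoprenoid and late sterol genes, 2 rose and 2 fell with TGF-α, 1 was higher and 1 lower with gefitinib added, and 1 was higher than control with TGF-α plus gefitinib.

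Of 10 genes of SREBP cleavage and sterol-linked degradation, 3 rose and 4 fell with TGF-α, 4 were higher and 2 lower with gefitinib added, and none passed between TGF-α plus gefitinib and control by edgeR or DESeq2, where 0 were higher and 1 lower at an unadjusted p under 0.05. Mbtps1, the site-1 protease that cuts SREBPs, had 297 and 296 CPM with TGF-α plus gefitinib, 262 and 248 with TGF-α, and 318 and 296 in control, lower with TGF-α than in control (log2 fold change -0.27 ± 0.05 SE, edgeR adjusted p = 0.000953). Of 21 listed genes of other fatty acid elongation, desaturation and activation, 19 were tested, 6 rose and 3 fell with TGF-α, 5 were higher and 4 lower with gefitinib added, and 5 were higher and 0 lower between TGF-α plus gefitinib and control. Fads3, of the fatty acid desaturase family, had 350.5 and 346 CPM with TGF-α plus gefitinib, 165 and 164 with TGF-α, and 317 and 317 in control, 1.93-fold lower with TGF-α than in control (log2 fold change -0.95 ± 0.05 SE, edgeR adjusted p = 9.52e-10) and 2.12-fold higher with gefitinib added (1.09 ± 0.05, adjusted p = 2.04e-10). Fads1 and Fads2, the desaturases of polyunsaturated fatty acids, were higher with TGF-α plus gefitinib than with TGF-α (log2 0.57 ± 0.05 SE and 0.63 ± 0.05 SE) and than in control (log2 0.34 ± 0.05 and 0.49 ± 0.05).

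Among 14 genes of glycerolipid synthesis, 1 rose and 4 fell with TGF-α, 6 were higher and 2 lower with gefitinib added, and 2 were higher and 0 lower between TGF-α plus gefitinib and control. Gpat4, a glycerol phosphate acyltransferase, had 121 and 120.5 CPM with TGF-α plus gefitinib, 93.2 and 94.6 with TGF-α, and 116 and 119.9 in control, lower with TGF-α than in control (log2 fold change -0.33 ± 0.06 SE, edgeR adjusted p = 0.000333). Of 18 genes of fatty acid oxidation, 6 rose and 1 fell with TGF-α, 3 were higher and 3 lower with gefitinib added, and 1 was higher and 0 lower between TGF-α plus gefitinib and control. Acadl, a mitochondrial acyl-CoA dehydrogenase, had 45.2 and 47.5 CPM with TGF-α plus gefitinib, 67.4 and 59.2 with TGF-α, and 41.1 and 42.0 in control, higher with TGF-α than in control (log2 fold change 0.61 ± 0.08 SE, edgeR adjusted p = 3.13e-05). In the comparison of TGF-α plus gefitinib with control, the unadjusted counts by edgeR were 6 higher and 2 lower for uptake and transport, 1 and 0 for the other isoprenoid genes, 9 and 0 for elongation and desaturation, 2 and 1 for glycerolipids and 4 and 1 for oxidation. DESeq2 called 1, 1, 4, 0 and 1 gene higher in those lists and 0 lower in each. Over all 15362 tested genes the unadjusted counts were 1918 higher and 1695 lower, and DESeq2 called 472 higher and 433 lower. The shares of all tested genes given above for these lists belong to adjusted calls and are not the background for unadjusted counts. The median log2 fold changes between TGF-α and control, between TGF-α plus gefitinib and TGF-α, and between TGF-α plus gefitinib and control were 0.07, 0.00 and 0.16 for uptake and transport, -0.16, 0.10 and -0.03 for the cleavage machinery, 0.12, 0.03 and 0.17 for elongation and desaturation, -0.09, 0.20 and 0.01 for glycerolipids and 0.15, -0.05 and 0.11 for oxidation.

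The marker lists of adipocytes, macrophages and endothelium had low sums, while that of fibroblasts and perichondrium did not. Of 8 adipocyte markers 5 were tested, and the list summed to 30.9 to 31.9 CPM with TGF-α plus gefitinib, 18.5 to 19.4 CPM with TGF-α and 20.6 to 23.1 CPM in control. The gefitinib libraries had the highest sums. The lipid droplet gene Plin4 was higher there, with 18.4 and 16.6 CPM with TGF-α plus gefitinib, 8.15 and 6.69 with TGF-α, and 6.32 and 6.43 in control, 2.74-fold higher with TGF-α plus gefitinib than in control (log2 fold change 1.45 ± 0.15 SE, edgeR adjusted p = 3.22e-05). Pparg had 8.02 and 8.16 CPM with TGF-α plus gefitinib, 5.77 and 6.11 with TGF-α, and 9.13 and 7.90 in control. Fabp4 had 3.10 to 4.29 CPM over the 6 libraries and Cfd 0.649 to 1.80 CPM. The other 4 markers had few counts, with 2 to 7 counts of Plin1, 6 to 19 counts of Adipoq, at most 3 counts of Cidec, and Lep at 0 in 5 of 6 libraries. Of 8 macrophage markers, Adgre1, Ptprc, Fcgr1 and C1qa were at 0 in every library, and the list summed to 6.03 to 7.20 CPM with TGF-α plus gefitinib, 9.66 to 12.5 CPM with TGF-α and 4.53 to 5.29 CPM in control, led by Cd68 with TGF-α. Endothelial markers summed to 0.480 to 0.685 CPM with TGF-α plus gefitinib, 1.53 to 2.16 CPM with TGF-α and 0.234 to 0.382 CPM in control, with Cdh5 and Emcn at 0 in every library. The 1 endothelial marker tested, Flt1, a receptor of vascular growth factors, had 1 and 0 counts with TGF-α plus gefitinib, 21 and 19 with TGF-α, and 1 and 2 in control. Flt1 was higher with TGF-α than in control (edgeR adjusted p = 0.000763) and lower with gefitinib added (edgeR adjusted p = 0.000277), while DESeq2 made 1 call in the first of these comparisons and 0 in the other. The 7 markers of fibroblasts and perichondrium summed to 8984 to 9140.4 CPM with TGF-α plus gefitinib, 9248 to 9396 CPM with TGF-α and 11896 to 12716 CPM in control. The 7 osteoblast markers summed to 117 to 119 CPM with TGF-α plus gefitinib, 84.5 to 90.9 CPM with TGF-α and 178.5 to 182 CPM in control. With TGF-α, 0 adipocyte markers rose and 1 fell, 1 macrophage marker rose and 1 fell, 2 fibroblast markers rose and 2 fell, and 0 osteoblast markers rose and 3 fell. Between TGF-α plus gefitinib and control, 5 fibroblast and 3 osteoblast markers were lower by edgeR, and 5 and 2 by DESeq2. None of either list was higher by edgeR or DESeq2, with 1 and 0 higher at an unadjusted p under 0.05 by edgeR. All 9 chondrocyte markers fell with TGF-α and were higher with gefitinib added, and 6 were lower and 1 higher between TGF-α plus gefitinib and control. Of all tested genes, 15.9% rose and 14.0% fell with TGF-α, and 17.0% were higher and 16.9% lower with gefitinib added. Between TGF-α plus gefitinib and control, 5.27% were higher and 4.26% lower. The part of the cell markers in the changes of the lipid genes was not tested.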

How the data were processed

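Sequencing of the 6 RNA libraries used an Ion Proton, per the labels. The authors deposited raw read counts per gene symbol, 1 column per library, as whole numbers that were not normalized. The submitters' processing notes name the build GRCm38. No source used here gives the aligner, the counter, the annotation or the use of strand, and how reads of near copies and overlapping genes were divided is unknown. Of 44788 entries 19649 had no count.

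The test was edgeR 4.0.16 in R 4.3.3 (TMM scaling, filterByExpr with a minimum count of 10, glmQLFit and glmQLFTest with group as the only term over all 6 libraries, two-sided, Benjamini-Hochberg adjustment over 15362 genes, threshold 0.05). The spread rested on 3 residual and 11.2 prior degrees of freedom. SEs of log2 fold changes were derived from the size of the change and the square root of the F statistic. CPM are counts relative to library size after TMM scaling. The code was tested on simulated data. Alternatives were DESeq2 1.42.0, other size factors and filters, 2-group fits, a replicate block and each library left out. The 2 libraries of each group differed beyond counting noise (chi-square per degree of freedom 3.03 to 3.83). With 2 against 2 libraries an exact permutation test cannot go below p = 0.33, so none is given. Intervals of levels are SDs of 2 libraries.

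The members and lists were chosen with earlier results of these data known. All members are accounted for, and of each other list the counts and at most 3 of the called genes with the smallest p are named. Other genes named beside them were picked after their values were seen, and 1 list gene is not reported here although it stayed in the tests and counts. Promoter windows come from RefSeq (GRCm38.p6) and exon lengths and overlaps from GENCODE M21.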

Additional observations from a re-analysis of the deposited data

How the results depend on the processing

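Over 1433 values of member and setting, 1318 kept their direction and side of the threshold, 95 lost the call, 8 gained it and 12 changed sign, none of the 12 called either way. With 1 library left out, the members called numbered 23 to 28 between TGF-α and control (27 with all libraries), 17 to 21 between TGF-α plus gefitinib and TGF-α (23) and 12 to 19 between TGF-α plus gefitinib and control (20), where the lone library of a group is assumed to vary like the others. All genes called numbered 3297 to 4767 (4600), 3703 to 4950 (5217) and 649 to 1291 (1463) in the same order of comparisons. They were 666 without control 1, 649 without control 2 and 893 without TGF-α plus gefitinib 2 in the last comparison. DESeq2 called 3114 genes between TGF-α and control, 3474 between TGF-α plus gefitinib and TGF-α, and 905 between TGF-α plus gefitinib and control. In the last comparison it gave an adjusted p for 10184 genes. The cause of the lower counts was not tested. Deviations of same-numbered libraries showed little correlation over genes (-0.02, 0.01 and 0.0034). Counting noise can hide a shared deviation, so these values cannot settle whether same-numbered libraries shared an origin, which no source used here gives. With a replicate block 26, 22 and 19 members and 4450, 5042 and 1335 genes were called. Signs changed with single libraries left out for the log2 fold changes of Ebp (-0.11 to 0.19) and Sc5d (-0.060 to 0.13) between TGF-α and control, of Mylip (-0.0035 to 0.078) and Nr1h2 (-0.028 to 0.10) between TGF-α plus gefitinib and TGF-α, and of Insig2 (-0.084 to 0.096) and Abcg1 (-1.04 to 0.88) between TGF-α plus gefitinib and control. For Insig2 it also changed with upper-quartile scaling (-0.0099) and with at least 10 counts in all 6 libraries (-0.00064), a filter that left 35 members. Depth limited Idi1, Abcg1 and Nr1h3, which had at most 27 counts in a library.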
